A study of Picea abies with 40 samples.

Results

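In Norway spruce seedling roots, the 100 genes described here stood highest in zone 1 among segments and in the QC area among captured regions. Zone 1 is the first segment cut from the tip, and the QC area is a region captured by laser from sections. Both are called tip samples or tip groups below, as a name only. The genes were chosen from 70736 gene IDs by their measured values. Counts were turned into CPM (the count divided by the library total and multiplied by 1000000) and averaged per group. A gene was kept when zone 1 and the QC area each had a mean of at least 10 CPM and zone 1 had at least 2 times the highest of zones 2 to 4. 1541 genes met the conditions on zone 1, and 1103 of these also met that on the QC area. These 1103 were ranked by the smaller of a pair of scores, each a log2 ratio of means with 1 CPM added. The zone score set zone 1 against the highest of zones 2 to 4, and the captured score set the QC area against the highest of ground tissue and steles 1 to 3. The first 100 of that ranking are the genes below, and the other 1003 ranked genes serve only as a comparison.

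All samples came from roots of Picea abies seedlings grown on plates for about 2 days after germination, and the labels give no genotype and no treatment for any group. 20 libraries came from whole segments, 5 for each of zones 1 to 4, numbered from the tip. 3 segments measured 1 mm and 1 measured 2 mm. The other 20 libraries came from laser capture microdissection, in which chosen cells are cut out of a section, with 4 each for the QC area, the ground tissue and the steles numbered 1 to 3. The abbreviation QC is kept as the labels have it, and the sources do not say which stele number lies where along the root. It is not stated whether replicates came from separate seedlings or pools, so the p-values below measure the spread between libraries, which may be technical.

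As background, a root grows from its apex. The apical meristem supplies new cells under the protection of a root cap, and cells left behind it elongate and then differentiate. The stele is the central cylinder in which the vascular tissue forms, and ground tissue lies between it and the epidermis. A whole segment mixes all of these tissues, while a captured region holds part of them. The segments thus selected genes on place along the root, while the captured regions can differ in tissue as well as in place. In bulk samples of this kind, fewer cells of a type and less RNA per cell cannot be told apart. The IDs are not paired with gene names or products here, so no function or cell type is given to any gene, and the labelled tissues could not be checked against marker genes. CPM values are not corrected for gene length, so levels are compared between groups and not between genes.

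Library totals were 3.53 to 7.25 M counts for the segments and 4.94 to 12 M for the captured regions. All zone libraries were sequenced in lane 3. Of the captured groups, the QC area was sequenced in lane 8 alone and stele 2 in lane 7 alone, so for both the lane and the region cannot be told apart in a pooled comparison. Lane 7 also held 1 ground tissue library, 2 of stele 1 and 3 of stele 3, and lane 8 held 3, 2 and 1 of these. Segments and captured regions had their RNA extracted by different methods and were never tested against each other.

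Together the 100 genes took 8005 ± 755 CPM (SD, n = 5) in zone 1, 1305 ± 310 in zone 2, 565 ± 79.5 in zone 3 and 644 ± 49.7 in zone 4. In the captured regions their sum was 15077 ± 1759 CPM (SD, n = 4) in the QC area. It was 5299 ± 1041 in ground tissue, 5605 ± 1386 in stele 1, 986 ± 347 in stele 2 and 528 ± 52.4 in stele 3. The 5 zone 1 libraries lay between 7367 and 9102 CPM and the highest library of another zone reached 1715 CPM. The 4 QC area libraries lay between 13496 and 17414 CPM, above the highest stele 1 library at 7626 CPM. These sums follow from the way the genes were chosen and are a description. A single gene, MA_460451g0010, made up 38.9% of the sum in zone 1, while in the QC area the top gene, MA_552873g0010, made up 12.2%. The median over the 100 genes, which no single gene sets, went from 28.8 CPM in zone 1 to 5.75, 1.64 and 2.29 CPM in zones 2 to 4. For the captured regions it was 60.8 CPM at the QC area, 21.7 CPM for ground tissue and also for stele 1, 4.33 CPM for stele 2 and 1.82 CPM for stele 3.

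**Figure D1:**
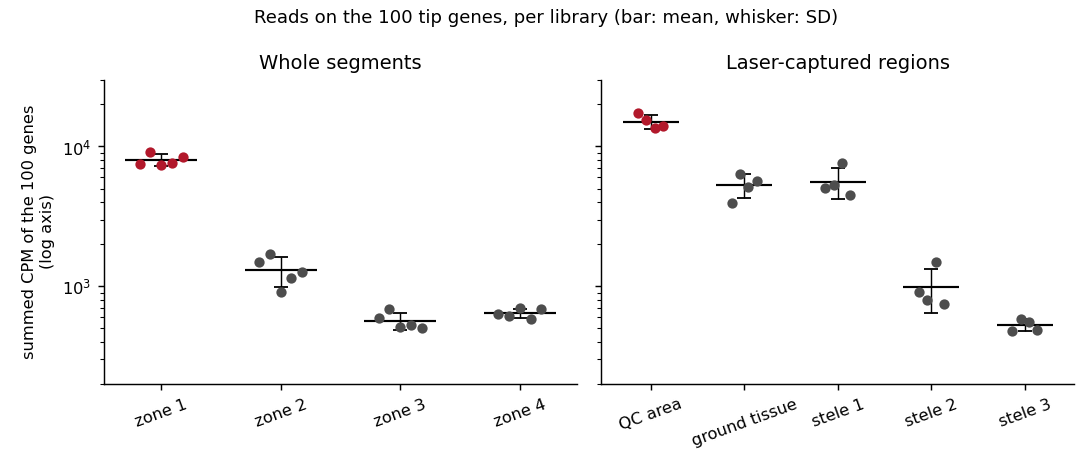
Summed CPM of the 100 genes in each library, on a log axis, for the 4 whole-segment groups (5 libraries each) and the 5 captured groups (4 libraries each). Points are libraries, bars are group means and whiskers are SD. Zone 1 (mean 8005 CPM) and the QC area (mean 15077 CPM), in red, stand highest because the genes were chosen for it, ground tissue and stele 1 overlap, and stele 2 and stele 3 lie lowest among the captured regions.

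Separate libraries mostly held the order that the means were chosen for. For 99 of the 100 genes each zone 1 library was above each of the 15 libraries of the other zones, against 27.5% of all genes with at least 10 CPM in zone 1. The exception was MA_12174g0010, with 1 zone 1 library at 7.84 CPM and 1 zone 4 library at 8.44 CPM. For 72 genes each QC area library was above each of the 16 other captured libraries, against 5.69% of all genes with at least 10 CPM in the QC area. Both held for 71 genes. Since the means were the choice, these shares are a description. In 27 of the 28 genes with an overlap around the QC area, a ground tissue or stele 1 library reached the lowest QC area library. Stele 1 replicate 3 did so in 13 of the 28 and ground tissue replicate 4 in 11, while stele 2 and stele 3 libraries did so in 2 genes each. Within lane 8, where the QC area, ground tissue, stele 1 and stele 3 all had libraries, the QC area had the highest mean for all 100 genes, with a median of 2.05 times the next group and a lowest value of 1.48 times. All QC area libraries and most ground tissue libraries were in that lane and had chosen the genes, so this too is a description. Stele 2 had no library there.

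Within the ranking the captured score was the smaller for 90 of the 100 genes. That follows in part from the rule. All ranked genes already had at least 2 times the CPM in zone 1, which sets a floor under the zone score but none under the captured score. Zone scores ran from 0.90 to 5.41 with a median of 1.84, and captured scores from 0.77 to 3.85 with a median of 0.99. Among the 1103 ranked genes the highest captured mean lay in the QC area for 823 and in ground tissue for 258, so 258 genes with a zone 1 peak had more CPM in ground tissue than in the QC area. The last genes inside the list, MA_163650g0010, MA_6078786g0010 and MA_5838g0010, had a captured score of 0.77. The first outside it, MA_13257g0010, MA_17728g0010 and MA_118630g0010, had 0.76, so the 100th place marks no gap. The last inside, MA_5838g0010, had a mean of 17.1 CPM in zone 1 and 73.6 CPM in the QC area against 42.8 CPM in ground tissue. The first outside, MA_13257g0010, had 24.0 CPM in zone 1 and 56.9 CPM in the QC area against 33.1 CPM in ground tissue.

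**Figure D2:**
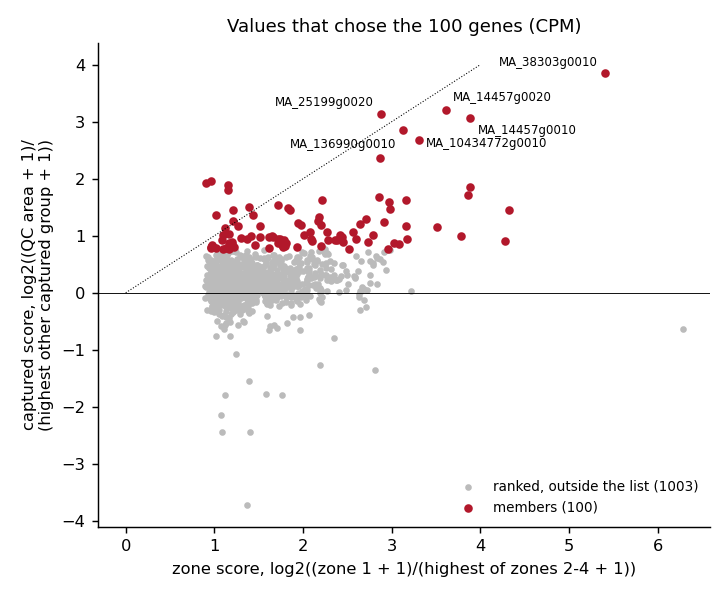
The pair of scores that chose the genes, each a log2 ratio of mean CPM with 1 added, for the 1103 ranked genes: zone score on the horizontal axis and captured score on the vertical axis. The 100 chosen genes (red) lie above a captured score of 0.77 with no gap to the 1003 others (grey), and 6 named genes stand apart at the top. The dotted line marks equal scores.

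The gene ranked first, MA_38303g0010, was close to absent from the segments beyond zone 1. Its zone 1 libraries were at 45.3, 47.9, 38.2, 42.0 and 51.9 CPM, and it had 1 count in all of zone 2, 1 in zone 3 and 2 in zone 4. In the QC area it was at 185, 262, 235 and 257 CPM, in ground tissue at 6.27, 33.4, 10.3 and 11.3 CPM and in stele 1 at 1.42, 9.70, 9.12 and 0.901 CPM. It had no count in the 8 libraries of stele 2 and stele 3. No QC area library overlapped with another group, and ground tissue replicate 2 was the highest library outside it.

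The next pair share a scaffold, with IDs that differ in the gene number alone. MA_14457g0020 was at 24.2, 24.0, 17.4, 19.7 and 20.7 CPM in zone 1, and its means were 0.815, 0.0690 and 0.322 CPM in zones 2 to 4. It was at 41.8, 61.5, 39.2 and 20.1 CPM in the QC area, with means of 3.5 CPM in ground tissue, 2.93 in stele 1, 0.414 in stele 2 and 0.144 in stele 3. MA_14457g0010 was at 24.8, 25.9, 24.3, 23.6 and 24.3 CPM in zone 1, the smallest relative spread of the 100 genes there with a coefficient of variation of 3.47%. It was at 105, 141, 72.9 and 72.1 CPM in the QC area, and at 2.20, 11.9, 8.93 and 8.16 CPM in ground tissue and 9.93, 13.3, 14.8 and 5.02 CPM in stele 1. In both genes the 4 QC area libraries were above all other captured libraries, and stele 2 replicate 3 was the highest of its group. Neighbouring models can be pieces of a single gene, which was not tested here.

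MA_25199g0020 and MA_10434772g0010 had modest CPM in the segment and much higher CPM in the captured region. MA_25199g0020 was at 11, 13.5, 14.3, 14.3 and 10.9 CPM in zone 1, and at 827, 410, 395 and 511 CPM in the QC area. Its ground tissue libraries ranged from 15.4 to 91.7 CPM and its stele 1 libraries from 18.0 to 99.1 CPM, it had 16 counts in stele 2, and none in stele 3. MA_10434772g0010 was at 37.0, 49.0, 41.3, 39.3 and 42.5 CPM in zone 1 and at 616, 547, 288 and 296 CPM in the QC area. Its stele 1 libraries, at 78.2, 72.4, 55.9 and 62.7 CPM, were all above those of ground tissue, at 5.94, 33.7, 16.8 and 41.7 CPM. For both genes every QC area library lay above every library of the other captured groups.

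MA_136990g0010 had the opposite balance, at 186, 243, 201, 200 and 224 CPM in zone 1 and 35.3, 65.0, 65.8 and 95.8 CPM in the QC area. Zone 2 still held 23.2 ± 5.47 CPM (SD, n = 5), and zones 3 and 4 held 6.48 ± 2.29 and 6.68 ± 2.79 CPM. In ground tissue it was at 0.770, 13.8, 13.3 and 5.06 CPM, and no library of steles 1 to 3 exceeded 5.25 CPM.

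**Figure D3:**
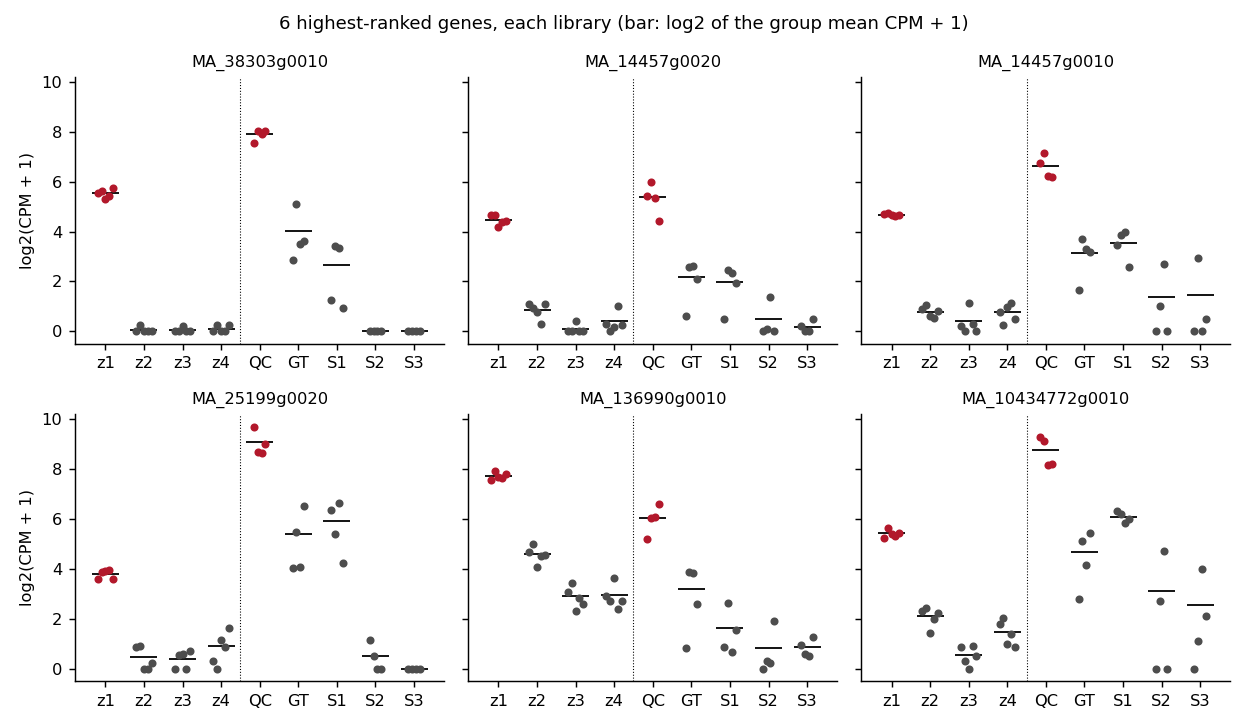
The 6 highest-ranked genes in every library as log2(CPM + 1), with zones 1 to 4 (z1 to z4, 5 libraries each) left of the dotted line and the QC area, ground tissue (GT) and steles 1 to 3 (S1 to S3, 4 libraries each) right of it. Bars are log2 of the group mean CPM plus 1. Zone 1 and QC area libraries (red) lie above all others within their table for each of these genes, while ground tissue and stele 1 have the next highest means among the captured groups.

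The balance between both tip samples varied widely. CPM was higher in the QC area than in zone 1 for 83 of the 100 genes, and at least 4 times as high for 22. These counts are a description. RNA of both samplings was extracted by different methods, the genes were chosen on both values, and the share over all genes was not counted. Only MA_460451g0010 and MA_73369g0010 had at least 4 times the CPM in zone 1. MA_460451g0010 was at 2826, 3745, 2717, 2781 and 3494 CPM in zone 1, the most reads of any of the 100 genes there. In the QC area it was at 20, 9.13, 15.6 and 20.4 CPM. Ground tissue replicate 2 (18.8 CPM) and stele 1 replicates 2 and 3 (11.7 and 12.8 CPM) reached into that range. It is thus in the list with a QC area mean of 16.3 ± 5.26 CPM (SD, n = 4), near the minimum of 10 CPM. MA_73369g0010 had 92.5 ± 4.14 CPM (SD, n = 5) in zone 1 and 14 ± 3.71 CPM (SD, n = 4) in the QC area. The levels of the 100 genes in zone 1 and in the QC area ranked alike only in part, with a Spearman correlation of 0.51 over the 100 genes, which share their libraries and uncorrected gene length and were chosen on both values.

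The genes with the most reads in the QC area also had many reads in ground tissue or stele 1. MA_552873g0010 was at 2144, 1414, 1569 and 2250.4 CPM in the QC area, 819, 1432, 875 and 896 CPM in ground tissue and 368, 604, 1088 and 660.2 CPM in stele 1. Ground tissue replicate 2 thus lay above 1 QC area library. MA_478577g0010 was at 2169, 1915, 1667 and 1497 CPM in the QC area and at 1027, 1122, 1072 and 807 CPM in stele 1, with no overlap, and ground tissue was at 355 to 626 CPM. MA_2828g0010 and MA_86195g0010, with many reads in both tip samples, had 395 ± 27.7 and 348 ± 23.7 CPM (SD, n = 5) in zone 1 and 631 ± 108 and 371 ± 79.0 CPM (SD, n = 4) in the QC area. No library of another zone exceeded 131 CPM for MA_2828g0010 or 33.9 CPM for MA_86195g0010.

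Some genes had a high zone score beside a modest captured score. MA_14309g0010, with 111 ± 14.6 CPM in zone 1 and 4.81 ± 2.36 CPM in zone 2 (SD, n = 5 each), had a zone score of 4.27 and a captured score of 0.90. Its QC area libraries were at 505, 598, 674 and 685 CPM and those of ground tissue at 219, 408, 337 and 353 CPM. MA_3670g0010 had a zone score of 4.32 and a captured score of 1.46, with stele 1 as the next captured group. The reverse was seen for MA_63465g0020, which had 130 ± 9.21 CPM in the QC area (SD, n = 4) and group means of 21.0 to 32.8 CPM in the other captured groups. In the segments it was at 28.9 ± 2.37 CPM in zone 1 and 14.4 ± 1.81 CPM in zone 3 (SD, n = 5 each), so its zone score was 0.96 and its captured score 1.95. The pair of scores had a Spearman correlation of 0.34 over the 100 genes, which were chosen on both.

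By the median, replicates of the 100 genes spread somewhat more than those of all genes with at least 10 CPM, which were not matched in read number. The median coefficient of variation was 13.2% in zone 1, against 11.5% over all 12910 genes with at least 10 CPM there, and 21.8% in the QC area, against 18.8% over 9945 genes. In the QC area it ran from 5.33% for MA_17738g0010, at 365, 403, 388 and 413 CPM, to 61.2% for MA_9913196g0010, at 25.3, 12, 10.9 and 5.90 CPM. MA_10433187g0010 (24.1 ± 1.36 CPM) and MA_66099g0010 (45.0 ± 2.88 CPM, SD, n = 4 each) were also steady there. MA_51652g0010, at 35.7, 35.9, 17.2 and 7.11 CPM, and MA_19990g0010, at 102.9, 37.3, 31.0 and 53.8 CPM, were among the most variable.

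Beyond zone 1 the genes did not all follow the same course, and the order of zones 2 to 4 was not used to choose them. Zone 2 was the highest of these zones for 78 genes, zone 4 for 18 and zone 3 for 4. The means of 31 genes fell at each step from zone 1 to zone 4. For 64 genes the mean was higher in zone 4 than in zone 3, and for 19 it was higher in zone 4 than in zone 2. Shares over all genes were not counted for these orders of means. Under 1 CPM remained for 8 genes in zone 2, 41 in zone 3 and 29 in zone 4. All 100 genes passed the filter on low counts in both tables, but a gene could pass through zone 1 or the QC area alone.

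From zone 2 to zone 3 many of the genes fell. In the quasi-likelihood test of edgeR, with p-values adjusted by Benjamini-Hochberg over all 27767 genes tested, at a threshold of 0.05, 69 of the 100 genes were lower in zone 3 and 4 were higher. Over all tested genes 25.8% were called lower and 26.2% higher. Of the 1003 other ranked genes, 950 were lower and 1 was higher. With only zones 2 and 3 in the fit, 69 of the 100 genes passed the filter on low counts, so the others were tested only through their counts in zones 1 or 4. Of these 69, 47 were lower and 3 were higher in that fit, against 5843 lower and 5811 higher of all 23561 genes tested. The median log2 fold change of the 100 genes was -1.37, against -0.0090 over all genes. Of those called, 22 fell by at least 8-fold, and the share of all genes at that size was not counted. Scaling by total counts in place of TMM moved the all-gene median to -0.11. Zone 2 replicate 2 was the highest zone 2 library for 69 genes, and leaving out any of the 10 libraries in turn gave 64 to 73 genes called lower.

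MA_915221g0010 was at 48.4, 74.4, 23.6, 38.6 and 53.9 CPM in zone 2 and at 1.64, 3.06, 0.345, 1.55 and 1.09 CPM in zone 3. That is a log2 difference of -4.90 ± 0.35 (SE) with an edgeR adjusted p of 2.08e-10, with no overlap. MA_110350g0010 was at 1.98, 1.99, 0.347, 1.58 and 1.12 CPM in zone 2, 33 counts in all, and had no count in zone 3. It was therefore at least 11.3-fold lower there, where 3 counts over the whole group serve as the floor and cover counting error only (p adjusted in edgeR = 4.64e-05). MA_110350g0010 was among the genes that did not pass the filter on low counts with only zones 2 and 3 in the fit.

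4 genes rose from zone 2 to zone 3. MA_12174g0010 had 4 counts in zone 2, at 0 to 0.347 CPM, and was at 2.47, 1.41, 3.62, 0.883 and 0.651 CPM in zone 3, a log2 difference of 3.47 ± 0.66 (SE) with an edgeR adjusted p of 0.000115. This gene, too, did not pass the filter on low counts with only zones 2 and 3 in the fit. MA_10429334g0010 was at 7.85 ± 1.73 CPM in zone 2 and 14.2 ± 2.98 CPM in zone 3 (SD, n = 5 each), with a log2 difference of 0.96 ± 0.16 (SE) with an edgeR adjusted p of 3.66e-05. MA_63465g0020, named above, rose by 0.84 ± 0.22 (SE, with an edgeR adjusted p of 0.00275) and MA_51652g0010 by 0.79 ± 0.18 (SE, p adjusted in edgeR = 0.000683) on the log2 scale. All 4 were below their zone 1 mean in zone 3, as the choice required. MA_63465g0020 and MA_51652g0010, with MA_10433004g0010 and MA_10436589g0010, were the 4 genes whose highest mean after zone 1 lay in zone 3.

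The step from zone 3 to zone 4 split the genes. By the same test zone 4 was higher for 22 and lower for 14, near the shares over all genes of 26.1% higher and 22.8% lower, so these counts are no result about the 100 genes. Their median log2 fold change was 0.13, against 0.037 over all genes and 0.14 over all genes with scaling by total counts. 15 genes were called lower in zone 3 than in zone 2 and then higher in zone 4, against 4.49% of all 27767 tested genes, and 9 were called lower at both steps, against 6.71%. Both steps share the zone 3 libraries. Since 69 of the 100 genes were called lower at the first step in any case, nothing is read from these joint counts. Of the 22 that rose, 11 stayed below their zone 2 mean in zone 4.

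Among the 22 called higher, MA_39199g0010 had the largest rise in CPM. It was at 119, 117, 87.2, 108 and 90.3 CPM in zone 1, 6.92 ± 2.11 in zone 2 and 5.01 ± 2.29 in zone 3 (SD, n = 5 each), and again at 49.9, 33.3, 62.9, 69.8 and 38.8 CPM in zone 4. The zone 4 libraries overlapped with no other zone. Against zone 2 its log2 difference was 2.86 ± 0.23 (SE) with an edgeR adjusted p of 1.84e-10. In the captured regions the same gene was low in stele 3, at 5.42 ± 1.13 CPM, and stele 2, at 6.91 ± 2.39 CPM (SD, n = 4 each), against 35.4 ± 8.04 CPM in ground tissue.

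Smaller rises in CPM were also called. MA_795128g0010 had 3 counts in zone 3 and 43 in zone 4, where all 5 libraries were at 1.42 to 1.90 CPM, a ratio of CPM of 14 (95% counting interval 4.48 to 70.6) (p adjusted in edgeR = 6.60e-06). MA_110350g0010 went from no count to 7 counts, at least 2.28-fold higher (p adjusted in edgeR = 0.0245). This call was lost without zone 4 replicate 3, which held 4 of the 7. With only zones 3 and 4 in the fit, neither MA_795128g0010 nor MA_110350g0010 passed the filter on low counts. Both were thus tested only through their counts in zones 1 or 2. MA_552873g0010 went from 1.22 ± 1.32 to 7.28 ± 2.71 CPM (SD, n = 5 each), against 275 ± 59.0 CPM in zone 1.

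A few genes went on falling. MA_2828g0010 was at 131, 124, 110, 102 and 119 CPM in zone 2, at 18.9, 61.6, 7.41, 22.3 and 17.4 CPM in zone 3 and at 1.23, 0.617, 0.827, 0.406 and 0.211 CPM in zone 4. The groups did not overlap at either step, and the last was a log2 difference of -5.28 ± 0.51 (SE) with an edgeR adjusted p of 1.33e-08. MA_478577g0010 fell from 7.18 ± 3.71 CPM in zone 3 to 1.16 ± 0.350 CPM in zone 4 (SD, n = 5 each), with a log2 difference of -2.70 ± 0.40 (SE) with an edgeR adjusted p of 7.01e-06. MA_42406g0010 had 392 counts in zone 2 and 5 in zone 4, a log2 fold change between these zones of -6.20 ± 0.36 (SE, p adjusted in edgeR = 7.08e-13).

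Between zone 2 and zone 4, 58 genes were lower in zone 4 and 6 were higher, against 34.4% and 33.8% of all genes, with a median log2 fold change of -1.0 against -0.040. Among the 1003 other ranked genes 886 were lower and 6 higher. With only zones 2 and 4 in the fit, 76 of the listed genes passed the filter on low counts. The others were thus tested only through their counts in other zones. Of the 76, 47 were lower and the same 6 listed genes were higher, against 8462 lower and 8886 higher of all 24994 genes tested. Of the 6, MA_12174g0010 rose most, to 2.95, 6.58, 4.55, 4.47 and 8.44 CPM in zone 4, a log2 difference of 4.86 ± 0.55 (SE) with an edgeR adjusted p of 4.37e-08. MA_39199g0010 followed. MA_10429334g0010, MA_7289g0010, MA_33207g0010 and MA_10428517g0020 rose by 1.39, 1.34, 1.28 and 0.83 on the log2 scale, with edgeR adjusted p of 5.85e-08, 0.00059, 0.000299 and 0.00236. In all 6 the calls held without each library in turn.

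**Figure D4:**
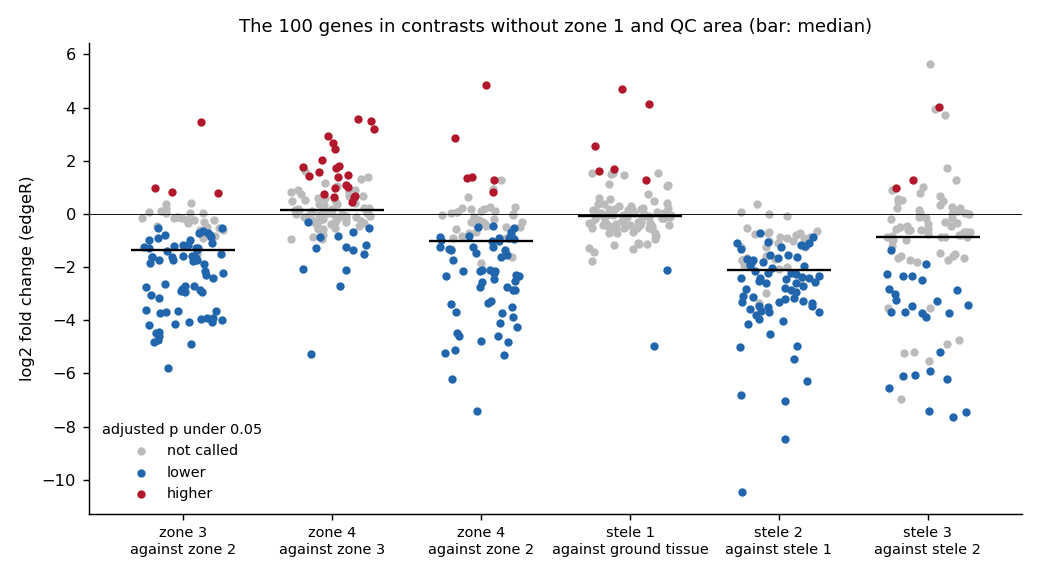
Log2 fold changes of the 100 genes from edgeR in the 6 contrasts that leave out zone 1 and the QC area. Each point is a gene, coloured by its call at an adjusted p under 0.05 (blue lower, red higher, grey not called), and bars are medians. The medians lie at -1.37, 0.13 and -1.0 in the zones, at -0.094 between stele 1 and ground tissue, and at -2.11 and -0.87 at the steps to stele 2 and stele 3. Points at the bottom include genes with no count in a group, whose fitted values depend on the prior count.

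Outside the QC area the genes stood highest in ground tissue and stele 1. Ground tissue was the next group after the QC area for 66 genes, stele 1 for 33 and stele 3 for 1. For 64 genes the means of ground tissue and stele 1 were within 1.5 times of each other. Ground tissue had at least 2 times the stele 1 mean for 11 genes, and stele 1 at least 2 times the ground tissue mean for 12. By edgeR's test over all 27239 genes of the captured table, 6 of the 100 were higher in stele 1 and 2 were lower. These are near the 4.78% and 1.25% over all genes, so the counts are no result about the 100 genes. A call missed is not a sign of equal levels, since libraries differed much: ground tissue replicate 1 was the lowest ground tissue library for 77 genes and stele 1 replicate 3 the highest stele 1 library for 71. The part of these libraries in the calls is seen in the counts without them. Without ground tissue replicate 1, 2 genes were higher and 1 lower, and without stele 1 replicate 3, 4 were higher and 3 lower. Without stele 1 replicate 1 or 2, 3 and 2 were higher, and without ground tissue replicate 2 or 4, 3 each. The 2 lower genes fell to 0 without stele 1 replicate 1 or 4 or ground tissue replicate 2 or 3, and to 1 without stele 1 replicate 2 or ground tissue replicate 4. Within lane 8, 3 were higher and 1 lower, against 285 higher and 131 lower of all 29695 genes tested. Within lane 7, with 1 ground tissue library assumed to vary like the other groups, none was called in either direction.

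Among the 6 genes higher in stele 1, a pair stood out. MA_10429775g0030 was at 87.9, 45.2, 51.4 and 25.4 CPM in stele 1 and at 1.65, 2.99, 1.74 and 1.96 CPM in ground tissue. That is a log2 difference of 4.70 ± 0.64 (SE) with an edgeR adjusted p of 0.000119, with no overlap. MA_317525g0010 was at 234, 159, 182 and 87.9 CPM in stele 1 and at 4.4, 7.26, 4.98 and 22.9 CPM in ground tissue, a log2 difference of 4.15 ± 0.79 (SE) with an edgeR adjusted p of 0.00241. Both calls held without each library in turn and were lost only within lane 7, with adjusted p of 0.187 and 0.440 in edgeR. Their QC area libraries ranged from 53.0 to 149 CPM and from 162 to 481 CPM, so for both the QC area and stele 1 ranges overlapped and ground tissue stood apart.

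The other 4, named here after their values were seen, were nearer to the threshold. MA_3670g0010 was at 203, 108, 156 and 70.2 CPM in stele 1 and 14.3, 44.6, 20.8 and 16.2 CPM in ground tissue, a log2 difference of 2.54 ± 0.72 (SE) with an edgeR adjusted p of 0.0394. MA_655783g0010, MA_6019571g0010 and MA_10428517g0020 were higher by 1.70, 1.63 and 1.26 on the log2 scale (edgeR adjusted p = 0.0213, 0.0331 and 0.0429). In all 4 the stele 1 libraries did not overlap with ground tissue, apart from MA_10428517g0020, whose lowest stele 1 library (264 CPM) lay below its highest ground tissue library (295 CPM). Of 17 alternative settings the calls were lost in 9, 6, 9 and 13, in the order named. All 6 genes higher in stele 1 than in ground tissue were lower in stele 2 than in stele 1.

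The 2 genes lower in stele 1 were MA_73369g0010 and MA_10433004g0010. MA_73369g0010 was at 1.21, 6.73, 9.27 and 3.82 CPM in ground tissue and had 4 counts in stele 1, all in replicate 2, a log2 difference of -4.98 ± 1.27 (SE) with an edgeR adjusted p of 0.0249. Without stele 1 replicate 2 it was -8.35. The call was lost without stele 1 replicate 1, 3 or 4 or ground tissue replicate 2 or 3. MA_10433004g0010 was at 20.8, 34.6, 26.2 and 22.1 CPM in ground tissue and 2.23, 4.17, 15 and 1.67 CPM in stele 1, with no overlap. Its log2 difference was -2.12 ± 0.62 (SE) with an edgeR adjusted p of 0.0481. That call was lost without any of the 8 libraries but stele 1 replicate 3, and in 12 of 17 settings in all.

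**Figure D5:**
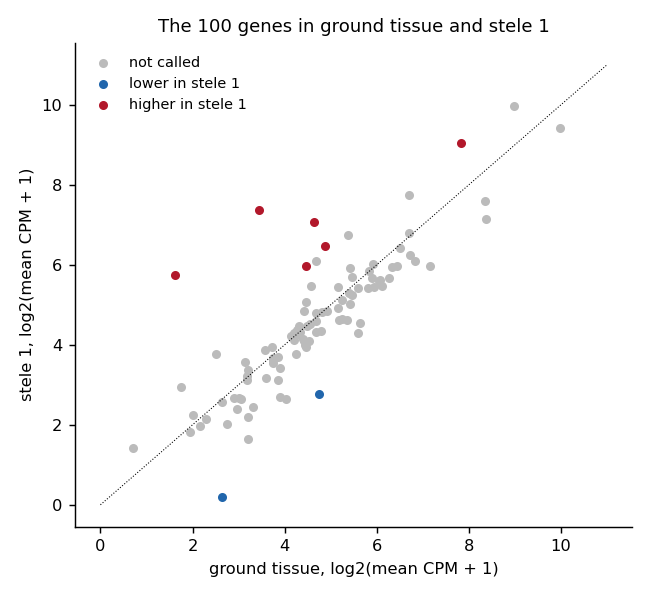
Group means of the 100 genes in ground tissue (horizontal) and stele 1 (vertical), as log2(mean CPM + 1). The 6 genes called higher in stele 1 are red, the 2 called lower are blue and the dotted line marks equal means. For 64 genes the means were within 1.5 times of each other, and both MA_10429775g0030 and MA_317525g0010 lie far above the line.

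Along the numbered steles the genes fell. The means of 79 genes fell at each step from stele 1 to stele 3, and the share over all genes was not counted. With scaling by total counts, as in these means, the all-gene median log2 fold change was also negative at both steps (-0.22 and -0.34). From stele 1 to stele 2, 67 genes were lower and none was higher by edgeR's test, against 8.97% lower and 12.4% higher over all genes. No gene was higher at an unadjusted p under 0.05 or by DESeq2 either. Among the 1003 other ranked genes 648 were lower and 3 higher. The median log2 fold change was -2.11 against -0.051 over all genes, or -2.05 with the 3 genes that had no count in stele 2 set to their bound. With total counts the all-gene median was -0.22. Stele 2 replicate 3 was the highest of its group for 59 genes, and leaving out libraries in turn gave 58 to 74 genes called lower. All stele 2 libraries were in lane 7, and within that lane, with 2 stele 1 libraries, 14 genes were called lower and none higher. Of all 29947 genes tested in that fit, 53 were called lower and 600 higher.

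MA_94115g0010 was at 0.203, 11.2, 69.6 and 8.50 CPM in stele 1. Without a single count in stele 2, it was at least 361-fold lower there (p adjusted in edgeR = 0.00108). Stele 1 replicate 3 held 603 of its 753 counts, and without that library the gene was at least 102.8-fold lower. Within lane 7 the call was lost (p adjusted in edgeR = 0.0914). MA_38303g0010, the first in rank, had 165 counts in stele 1 and none in stele 2, at least 79.0-fold lower (p adjusted in edgeR = 0.00124). Stele 1 replicates 2 and 3 held 72 and 79 of these, and the bound was 60.04-fold and 58.9-fold without the one or the other. With only steles 1 and 2 in the fit, neither MA_94115g0010 nor MA_38303g0010 passed the filter on low counts. Both were thus tested only through their counts in other captured groups, the QC area among them. MA_94115g0010 was also close to absent from zones 3 and 4, with 1 and 3 counts, and had 21.0 ± 3.92 CPM (SD, n = 5) in zone 1.

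From stele 2 to stele 3, 27 genes were lower and 3 were higher, against 9.16% and 3.85% over all genes. The median log2 fold change was -0.87, against -0.11 over all genes, and -0.34 over all genes with total counts. It was -0.88 over 98 genes with those at no count set to their bound. Among the 1003 other ranked genes 514 were lower and 1 higher. 22 genes were lower at both stele steps, against 2.82% of all 27239 tested genes, with the stele 2 libraries in both. Since 67 and 27 of the 100 genes were called lower at these steps in any case, nothing is read from the joint count. 14 genes had no count in stele 3. Within lane 7, with 3 stele 3 libraries, 4 were lower and none higher, against 143 lower and 105 higher of all 29947 genes tested. MA_113625g0010 was at 4.51, 4.59, 2.04 and 0 CPM in stele 2, 118 counts, with none in stele 3, at least 25.5-fold lower (p adjusted in edgeR = 0.00325). MA_72432g0010 had 105 counts in stele 2 and none in stele 3, at least 22.7-fold lower (p adjusted in edgeR = 0.0044). Both had stele 2 replicate 4 at 0, and both calls were lost within lane 7. With only steles 2 and 3 in the fit neither gene passed the filter on low counts. Both were thus tested only through their counts in other captured groups, the QC area among them.

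3 genes were higher in stele 3 than in stele 2. MA_10429334g0010 was at 21.2, 25.7, 18.7 and 20.5 CPM in stele 2 and 45.6, 40.9, 41.5 and 46.7 CPM in stele 3, with no overlap, a log2 difference of 1.26 ± 0.29 (SE) with an edgeR adjusted p of 0.00866. It was lost only within lane 7, of 16 settings. MA_12174g0010 was at 0, 1.58, 0.185 and 0 CPM in stele 2 and 14.6, 4.91, 0.708 and 5.35 CPM in stele 3, a log2 difference of 4.03 ± 0.92 (SE) with an edgeR adjusted p of 0.0076. Without stele 2 replicate 2 it was 6.51, and the call was lost within lane 7 and with only both groups in the fit. MA_10429332g0010 was at 25.3, 36.5, 33.4 and 12.2 CPM in stele 2 and 26.8, 72.3, 35.1 and 44.5 CPM in stele 3, with an overlap, a log2 difference of 0.96 ± 0.27 (SE) with an edgeR adjusted p of 0.0251. Named after its values were seen, it lost its call in 7 of 16 settings, among them total counts and the absence of stele 3 replicate 2 or 4 or of stele 2 replicate 1.

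Calls in the segments were also set beside those in the captured regions. 51 genes were lower both in zone 3 than in zone 2 and in stele 2 than in stele 1, which is 73.9% of the 69 and 76.1% of the 67 called. Over all 23730 genes tested in both tables, 7.38% were lower in both. Since 67 and 69 of the 100 genes were called lower at these steps in any case, nothing is read from the overlap. 19 genes were under 1 CPM in both zone 4 and stele 3, from 29 and 40. Levels over the 100 genes had a Spearman correlation of 0.62 between zone 4 and stele 3 and 0.35 between zone 2 and stele 1, as a description over genes that share libraries and uncorrected length. Of the genes called higher in zone 4 than in zone 3, 2 (MA_12174g0010 and MA_10429334g0010) were higher and 4 were lower in stele 3 than in stele 2, against 1.58% and 1.56% of the genes tested in both tables. Nothing is read from these counts either. 42 genes kept at least 1 CPM in each of the 9 groups. MA_10428517g0020 was among them, with 3.88 to 8.23 CPM in zones 2 to 4 and 92.4 CPM in stele 3, and so was MA_5838g0010.

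The genes lay on many scaffolds, reading the part of an ID before the letter g as the scaffold. The 100 genes fell on 99 scaffolds, and only MA_14457 held more than 1 of them. 81 were the only ID on their scaffold, against 74.9% of all IDs. The scaffolds held 23 other IDs, of which 9 had no count in either table. 7 of the 23 were tested in the zone table, where 3 were lower and 1 higher in zone 2 than in zone 1, against 27.6% and 28.1% of all genes. 9 were tested in the captured table. There 1 was lower in ground tissue than in the QC area (1.51% of all genes) and none higher (3.23%), with none called for stele 1 against the QC area (8.42% of all genes higher and 1.03% lower).

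The scaffold of MA_10429775g0030 held neighbours of both kinds. MA_10429775g0010 and MA_10429775g0020 had means of 28.1 and 22.6 CPM in zone 1 and 83.8 and 57.6 CPM in zone 4, the opposite direction. MA_10429775g0040 had means of 11.3 CPM in the QC area, 4.78 in stele 1 and 0.426 in ground tissue, a log2 fold change of ground tissue against the QC area of -4.61 ± 0.92 (SE, p adjusted in edgeR = 0.00477). It had 2.46 CPM in zone 1, under the minimum for the list. MA_57173g0020 had 21.7 CPM in zone 1 and 11.2 CPM in zone 2, just under the 2 times that the list required. Its QC area mean of 9.47 CPM was also under the minimum of 10 CPM. The ranked gene MA_107371g0020, at place 126, also sits on the scaffold of a listed gene.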

How the data were processed

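The deposited values are raw read counts per gene, made by the authors for 20 segment libraries in a table and 20 captured libraries in another, each with 70736 gene IDs. Trimmomatic, STAR and HTSeq were used per the submitters' processing notes. The sources used here give neither versions nor the genome build, gene models or strand setting, so reads of overlapping, antisense or near-identical genes cannot be assigned with certainty. Stele columns of the captured table were matched to samples by elimination, since the other groups are named apart.

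The 100 genes, the gene list rules and the tests were chosen with earlier results of these data known. CPM for choosing and printing used column totals. Each table was fitted with edgeR 4.0.16 in R 4.3.3 (filterByExpr, TMM, glmQLFit on all groups of the table, glmQLFTest, Benjamini-Hochberg over all tested genes). Fold changes are from these fits, with TMM factors of 0.926 to 1.07 and 0.753 to 1.23, and need not equal ratios of printed CPM. The SE is the log2 fold change over the square root of the F statistic. The code was tested on simulated data. DESeq2 1.42.0, other scalings and filters, lane and replicate terms, single lanes and leaving out each library were alternatives. Intervals and floors of 3 counts cover counting error only. Tables and plots were made in Python 3.11.15 with pandas 2.3.3 and matplotlib 3.10.9.

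Replicates differed by more than sampling noise, with a smallest chi-square per gene of 1.90 between zone 1 replicates 4 and 5, so none were merged. For zones 2 and 3 libraries with the same number deviated together from the group means, with correlations of 0.122 to 0.336, each above 0.1, so the numbers were taken to pair them, although the labels do not say what they mark. No other tested pair of groups passed this check. The main fits held no replicate term, so the values printed for zone 3 against zone 2 ignore this pairing. Counts with a replicate term are in the last section. The 100 genes were not tested between zone 1 or the QC area and other groups, as these values chose them; only scaffold neighbours were. Genes are named by rule: the 6 ranked first, the 3 last inside and 3 first outside the list, the 3 with the most reads in each tip group, the 2 largest called rises and falls per contrast, the 2 with the largest gap between scores each way, genes sharing scaffolds, and the 3 most and 3 least variable in the QC area. Others are said to be named after their values were seen, or serve as members of small counts. Lists of pathway genes and markers by product name could not be applied, as the IDs carry no names here.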

Additional observations from a re-analysis of the deposited data

Results flagged for a closer look

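MA_552873g0010 had 1 library of zone 1 far from the others. Replicate 1 was at 174 CPM and the other 4 libraries lay between 282 and 321 CPM, a gap of 0.737 of the whole range. All 5 were above the highest library of another zone, at 58.0 CPM. This was 1 of 41 groups checked for a library standing apart, and chance gives about 1 in 20.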

How the results depend on the processing

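Of 222 recalculated counts of the listed genes, 189 stayed within 1.5 times of the reported value. Of 528 recalculated changes in single genes, over 33 results, none changed direction, 71 lost their call and 18 results kept theirs throughout. With zones 2 and 3 taken as paired, the replicate block gave 68 lower and 4 higher genes, against 7128 and 7330 of all 27767 tested. Elsewhere the number is only a shared number, and the block left every count within 1.5 times. The calls most open to the processing lay between stele 1 and ground tissue. 6 genes were higher, against 3 with lane as a covariate, 10 with only these groups in the fit, 3 within lane 8, 0 within lane 7 and 2 to 6 without single libraries. 2 were lower, against 1 with total counts, with lane as a covariate, with only these groups or within lane 8, 0 within lane 7 and 0 to 3 without single libraries. From stele 1 to stele 2, 44 were lower with only these groups in the fit, where 94 were tested, and 14 within lane 7. With only these groups, 911 of all 22663 genes tested were lower. From stele 2 to stele 3, 8 were lower with only these groups, where 67 were tested, and 4 within lane 7. At this step 6 were higher by DESeq2, 1 with only these groups and 0 within lane 7. By DESeq2, 2076 of all 27239 genes were higher. Over all 20938 genes tested with only these groups, 485 were lower and 526 higher at this step. From zone 3 to zone 4, 11 were higher with only these groups, where 53 were tested, and 9 were lower by at least 2-fold. With only these groups, 6394 of all 24057 genes tested were higher. From zone 2 to zone 3, 1 was higher by at least 2-fold. Fewer genes or libraries entered the smaller fits and the cause of the other shifts was not tested. The list itself kept 94 of its 100 genes with TMM totals, 87 with medians, 84 from lane 8 alone, and 84 to 98 without single libraries. With a minimum of 5 CPM it kept 64 and with 20 CPM 56. The scaling by total counts was added after seeing the data. Depth limits genes under 1 CPM, which rest on few counts per library.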
